A study of Mus musculus with 9 samples.

Results

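Solute carriers are membrane proteins that move ions, amino acids, metabolites, metals and nucleosides across cell membranes without hydrolysing ATP themselves. Many draw on the sodium gradient that the sodium pump maintains, and others exchange one solute for another or let it run down its gradient. In heart muscle they bring in creatine, taurine, lactate and amino acids, move protons, bicarbonate and chloride, and take up or release metals. The genes described here are those whose symbol has the form Slc, a family number, the letter a and a member number. The carriers of glucose (Slc2a), sodium and calcium (Slc8a), mitochondria (Slc25a) and fatty acids (Slc27a) were left out. The rule found 106 genes, measured by 130 probe sets, among the 8252 genes that have a probe set with 1 gene symbol. Each gene was represented by its probe set with the highest mean over all arrays. By what the families are known for, 87 of the 106 belong to carriers that work mostly at the cell surface, and 19 to carriers that work mostly in internal membranes, such as the nucleotide sugar carriers of the Slc35 family. The group is therefore wider than a plasma membrane set.

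RNA was taken from the ventricles of 9 mice and hybridised to 1 array per mouse. The 3 caPI3K mice were transgenic for a constitutively active phosphoinositide 3-kinase (PI3K), the kinase that relays signals from the insulin and insulin-like growth factor receptors. The 3 dnPI3K mice were transgenic for a dominant negative PI3K, and the 3 NTG mice carried no transgene. Per the labels, hearts were 20% larger than in littermates of wild type in caPI3K mice and 17% smaller in dnPI3K mice. The labels give neither strain, age, sex, promoter of the transgene nor number of founder lines, and no group received a treatment.

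Values are normalized intensities, in the units of the deposited arrays. A probe set reads its own sequence with its own efficiency, so levels are compared between arrays for 1 gene and not between genes. Precision is limited by 3 arrays per group. Intensities below 35.3, the 20th percentile of all values, were raised to that floor before the logarithm. Of the 106 genes, 92 lay above the floor on at least 3 arrays and were tested, and 72 lay above it on all 9. The other 14 were Slc1a1, Slc7a6, Slc18a3, Slc32a1, Slc29a2, Slc10a2, Slc22a30, Slc22a4, Slc26a1, Slc26a2, Slc4a5, Slc4a8, Slc23a1 and Slc46a1, each above the floor on 0 to 2 arrays. Log2 fold changes, their standard errors (SE) and adjusted p-values are from limma, fitted over all 10645 probe sets that passed the same filter, with Benjamini-Hochberg adjustment over all of them and a threshold of 0.05.

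The dnPI3K arrays stood apart from the others in their array controls and animal numbers. Their spike-in controls had a geometric mean of 1567 to 1984 in deposited intensity, against 2607 to 3519 on the remaining arrays, and the 3′ control for 18S ribosomal RNA read 3303 to 8097 against 461.8 to 670.6. Their animal numbers lie in series that no other group has, with replicate 1 in a different series from replicates 2 and 3. The caPI3K and NTG animals share number series. Transgene and animal series therefore cannot be told apart in any comparison with dnPI3K. Cardiomyocyte markers were bright on every array, with a summed intensity of 253041 to 276544 for 9 genes. Atrial markers varied and are given with the other cell type markers.

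Between the larger caPI3K hearts and the smaller dnPI3K hearts, 4 carrier genes differed. The creatine carrier Slc6a8, the taurine carrier Slc6a6, the potassium and chloride cotransporter Slc12a4 and the monocarboxylate carrier Slc16a7 were all lower in caPI3K than in dnPI3K. Slc6a8 was also higher in dnPI3K than in NTG, and 0 passed between caPI3K and NTG with limma (7 had an unadjusted p under 0.05). All 4 work mostly at the cell surface. The 4 lower genes are 4.35% of the 92 tested, against 3.24% of all probe sets tested that passed in either direction and 1.54% that were lower in caPI3K. For dnPI3K against NTG, 1 gene is 1.09%, against 2.18% of all probe sets in either direction and 1.01% that were higher in dnPI3K. For caPI3K against NTG, 0.0845% of all probe sets passed. These shares rest on 0 to 4 carrier genes, and whether the carriers differ from the rest of the array was not tested. In bulk tissue, fewer cells of a type and less RNA per cell cannot be told apart.

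Slc6a8 carries creatine into muscle with sodium and chloride, since heart muscle takes up the creatine it phosphorylates. Its intensity was 1237, 1069 and 1608 on the NTG arrays, 1234, 1066 and 1100 on the caPI3K arrays and 2227, 2219 and 2202 on the dnPI3K arrays. Each dnPI3K array was above all others, and the caPI3K and NTG arrays overlapped. The mean rose from 1305 ± 276 (SD, n = 3) in NTG to 2216 ± 12.9 in dnPI3K, which is 1.72-fold (log2 fold change 0.79 ± 0.138 SE, limma adjusted p = 0.0175). In caPI3K it was lower than in dnPI3K by 0.97 ± 0.138 on the log2 scale (limma adjusted p = 0.00403), which is 1.96-fold. Against NTG the caPI3K change was -0.19 ± 0.138 (limma adjusted p = 0.829), and it was -0.0041 and -0.55 within the number series with 2 animals and 1 animal of each group. The difference between caPI3K and dnPI3K passed in all 20 alternative settings run (limma adjusted p 0.000792 to 0.0325). The rise over NTG passed in 12 of 20, with adjusted p between 0.00316 and 0.0856, and was lost without any 1 of the dnPI3K arrays, without NTG replicate 1 or without NTG replicate 2 (log2 fold change 0.65 to 0.79 there). It was also lost with no filter on dim probe sets, with no intensity trend and with only the groups compared in the fit. A second Slc6a8 probe set lay under the filter and was not tested.

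**Figure D1:**
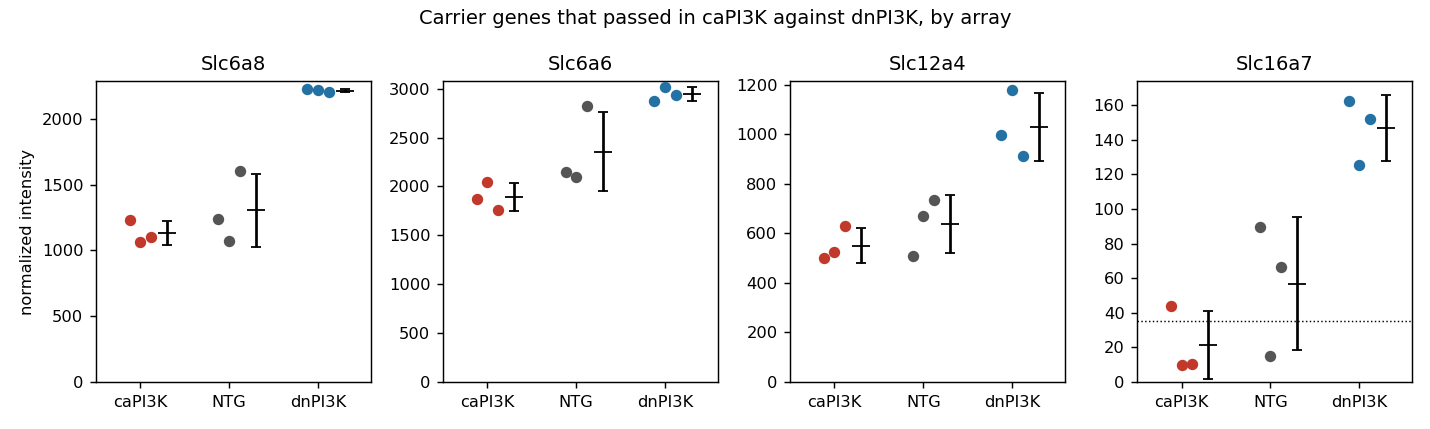
Normalized intensity (linear axes from 0) of Slc6a8, Slc6a6, Slc12a4 and Slc16a7 on each array, with the group mean ± SD (n = 3) to the right of the points and, for Slc16a7, the floor of 35.3 as a dotted line. In all 4 panels the dnPI3K points lie above the caPI3K and NTG points, and for Slc6a6 the caPI3K points also lie below the NTG points.

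Slc6a6 takes up taurine, an abundant free amino acid of heart muscle that serves as an osmolyte. It read 2150.2, 2093.6 and 2819.7 in NTG, 1868, 2050 and 1760 in caPI3K and 2872, 3016 and 2938 in dnPI3K. The 3 groups did not overlap, with caPI3K lowest and dnPI3K highest, although NTG replicate 3 came close to the dnPI3K arrays. The caPI3K mean was 1893 ± 146 and the dnPI3K mean 2942 ± 72.0 (SD, n = 3), a log2 difference of -0.64 ± 0.118 (limma adjusted p = 0.016). Against NTG (2354 ± 404), caPI3K was at -0.30 ± 0.118 (limma adjusted p = 0.652) and dnPI3K at 0.33 ± 0.118 (limma adjusted p = 0.21). The caPI3K change against NTG differed between the number series these groups share, at -0.12 in the series with 2 animals of each group and -0.68 in the series with 1 of each. Without NTG replicate 3 the dnPI3K change against NTG was 0.47 and passed (limma adjusted p = 0.0333, within 0.0333 to 0.447 over all alternatives). The difference between caPI3K and dnPI3K passed in 14 of 20 alternatives and was lost without caPI3K replicate 1 or 3 or dnPI3K replicate 2 or 3, with log2 values of -0.64 to -0.59. A second, dimmer Slc6a6 probe set was at -1.47 in the same comparison and did not pass (limma adjusted p = 0.125).

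Slc12a4, also known as KCC1, lets potassium and chloride leave the cell together and takes part in cell volume control. It read 509.0, 671.1 and 735.8 in NTG, 499.6, 524.6 and 629.8 in caPI3K and 997.0, 1181 and 913.0 in dnPI3K. Every dnPI3K array was above the rest, and the other groups overlapped. The mean was 551.3 ± 69.1 in caPI3K and 1030 ± 137 in dnPI3K (SD, n = 3), a log2 difference of -0.90 ± 0.168 (limma adjusted p = 0.0163). Against NTG (638.6 ± 117) dnPI3K was at 0.70 ± 0.168 and fell short of the threshold (limma adjusted p = 0.0644), while caPI3K was at -0.20 ± 0.168 (-0.19 and -0.22 within the number series). The dnPI3K change against NTG passed in 4 of 20 alternatives, among them scaling to the same median (0.77, limma adjusted p = 0.0412) and leaving out NTG replicate 3 (0.81, limma adjusted p = 0.0488), within 0.0394 to 0.218 over all. The difference between caPI3K and dnPI3K passed in 15 of 20 and was lost without caPI3K replicate 1 or 2 or dnPI3K replicate 2 (-0.87 to -0.79).

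The kinase Stk39, known as SPAK, phosphorylates cotransporters of the Slc12 family and inhibits the potassium and chloride cotransporters among them. Stk39 read 1012, 652.4 and 980.0 in NTG, 711.7, 646.0 and 671.5 in caPI3K and 1158, 1116 and 1238 in dnPI3K. Like Slc12a4, it was lower in caPI3K than in dnPI3K, by 0.79 ± 0.160 on the log2 scale (limma adjusted p = 0.0238). That call was lost without any 1 of the 6 arrays of these groups. The promoters of both genes are shown because both passed as lower in caPI3K than in dnPI3K. Whether they vary together was not tested. The RefSeq promoter table used here (GRCm38.p6, 250 bases before to 50 after a gene's start) lists 84 of the 106 carrier genes. Slc6a8, Slc6a6 and Slc16a7 are not among these. The sequences run 5′ to 3′ on the strand of the gene, with matches to 5 searched motifs on either strand in capitals. The FoxO motif was searched as GTAAACA, and the GC box, which binds Sp1, as GGGCGG. For the E-box of Myc and related factors the letters were CACGTG. For the TATA box of core promoters they were TATAAA, and for the core of the NFAT motif TGGAAA. In both windows no match of one motif overlapped a match of another. The Slc12a4 promoter lies at chr8:105966066-105966365 on the minus strand, and that of Stk39 at chr2:68471932-68472231 on the minus strand.
Slc12a4: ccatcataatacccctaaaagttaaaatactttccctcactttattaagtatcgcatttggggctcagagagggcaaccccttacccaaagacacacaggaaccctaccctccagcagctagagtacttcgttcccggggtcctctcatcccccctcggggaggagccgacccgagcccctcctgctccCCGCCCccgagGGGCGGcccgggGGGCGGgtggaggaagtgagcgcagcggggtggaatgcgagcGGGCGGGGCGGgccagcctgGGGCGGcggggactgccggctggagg
Stk39: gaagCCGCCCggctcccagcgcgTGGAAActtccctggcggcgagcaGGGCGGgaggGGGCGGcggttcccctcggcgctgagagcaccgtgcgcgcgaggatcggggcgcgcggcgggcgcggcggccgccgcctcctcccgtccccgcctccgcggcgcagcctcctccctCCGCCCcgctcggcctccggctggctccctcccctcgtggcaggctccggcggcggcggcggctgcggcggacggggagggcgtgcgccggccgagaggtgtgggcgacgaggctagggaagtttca
GGGCGG occurs 6 times in the Slc12a4 promoter, with 2 of the matches overlapping, and 4 times in the Stk39 promoter. It occurs in 35.7% of all 32851 promoters of the table and in 56.8% of the 125 promoters of the 84 listed carrier genes. Whether any motif differs in share between carriers and all genes was not tested. TGGAAA occurs 1 time in the Stk39 promoter, in 21.4% of all promoters and in 12.8% of those of carrier genes. The FoxO motif, found in 3.65% of all promoters, the E-box (7.15%) and the TATA box (13.6%) are in neither window. Among promoters of carrier genes their shares are 3.2%, 12% and 9.6%. The GC content is 65.0% for Slc12a4 and 80.0% for Stk39, against a median of 52.7%.

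Slc16a7, known as MCT2, carries lactate, pyruvate and ketone bodies together with a proton. Its signal was dim, at 89.6, 14.9 and 66.1 in NTG, 43.9, 9.49 and 10.6 in caPI3K and 162.4, 125.4 and 152.2 in dnPI3K. On all dnPI3K arrays it exceeded the floor and the other arrays, whereas 2 of 3 caPI3K arrays and 1 of 3 NTG arrays lay under the floor. The log2 difference between caPI3K and dnPI3K was -1.94 ± 0.349 (limma adjusted p = 0.0145). Its size, and so its rank among the carriers, depends on the floor. It was -3.15 with the floor at the 5th percentile and -0.37 with the floor at the 40th, and did not pass at either (limma adjusted p = 0.0516 and 0.162). It was also lost without caPI3K replicate 2 or 3 or dnPI3K replicate 1 or 3 (-1.90 to -1.87, limma adjusted p 0.0507 to 0.0662), and passed in 13 of 19 alternatives. Against NTG, dnPI3K was at 1.30 ± 0.349 (limma adjusted p = 0.0969) and caPI3K at -0.64 ± 0.349 (limma adjusted p = 0.76; -0.51 and -0.90 within the number series). Of the other monocarboxylate carriers, Slc16a1 (MCT1), the form that takes up lactate in most tissues, read 231.7 ± 83.2 in NTG, 238.5 ± 10.4 in caPI3K and 289.2 ± 15.0 in dnPI3K and did not pass (-0.28 ± 0.248 between caPI3K and dnPI3K). Slc16a8 was at -0.04 in the same comparison.

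**Figure D2:**
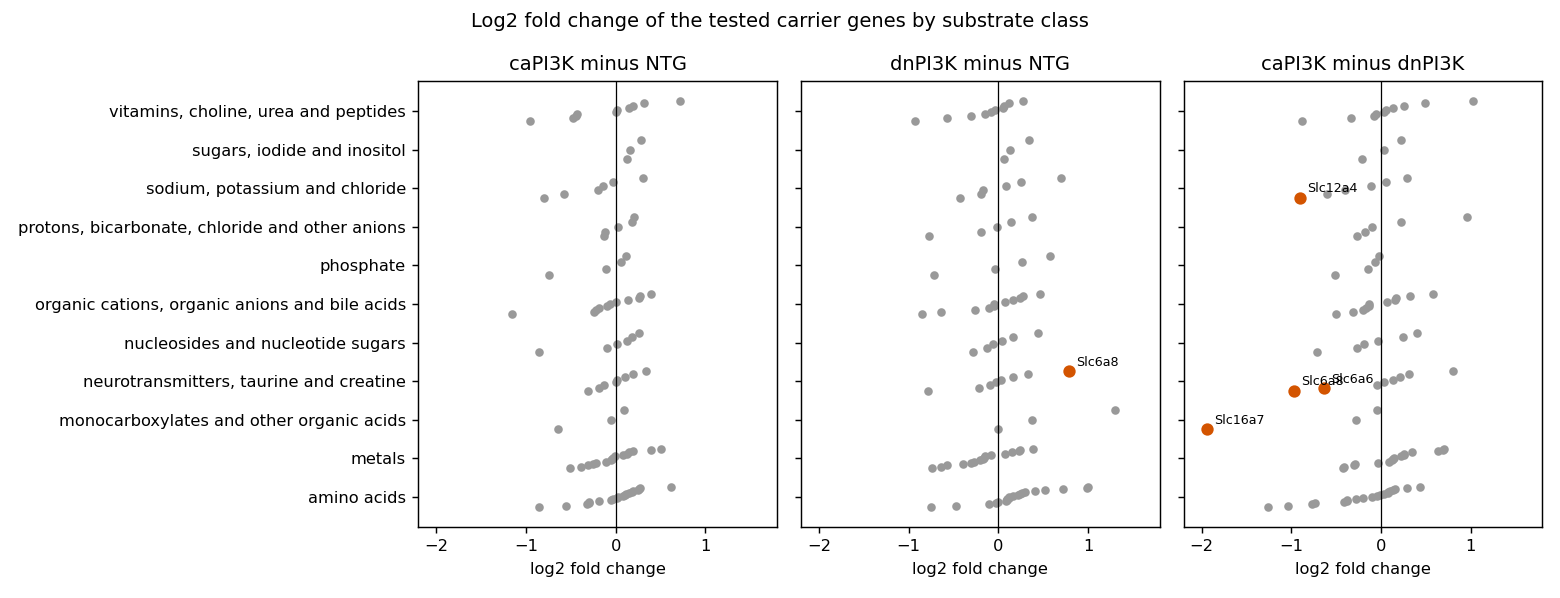
Log2 fold change (horizontal axis) of the 92 tested carrier genes by substrate class (vertical axis) for caPI3K minus NTG, dnPI3K minus NTG and caPI3K minus dnPI3K. Each point is 1 gene, and large orange points passed the threshold: 0 in the first panel, Slc6a8 in the second and 4 genes in the third.

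As a whole the carriers were balanced around 0. In caPI3K against NTG, 47 of 92 were above 0 (51.1%, against 49.7% of all probe sets tested), with a median log2 fold change of 0.002 and a range of -1.16 to 0.72. In dnPI3K against NTG 48 were above 0 (52.2%, against 50.5% of all), with a median of 0.048 and a range of -0.93 to 1.30. Between caPI3K and dnPI3K 43 were above 0 (46.7%, against 50% of all), with a median of -0.04. The medians over all probe sets tested were -0.001, 0.003 and 0.0002. At an unadjusted limma p under 0.05 there were 7, 14 and 11 carrier genes in these comparisons (7.61%, 15.2% and 12%), against 6.9%, 14.8% and 16.4% of all probe sets. The spread between replicate arrays, as the median moderated SD on the log2 scale, was 0.33 for carriers and 0.31 for all probe sets.

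Arrays of both groups compared were fully apart for 21 carrier genes in caPI3K against dnPI3K, 7 higher and 14 lower in caPI3K. This is 22.8%, against 23.3% of all probe sets tested (11.2% higher and 12.1% lower). The count was 16 in dnPI3K against NTG (17.4%, against 18.7%) and 11 in caPI3K against NTG (12%, against 11.7%). The first 2 of these counts include Slc22a6, which was above the floor in dnPI3K alone. The third includes Slc33a1, whose 3 NTG arrays all lay under the floor. These shares are near those of the whole array. The genes of each substrate class are given below as values, and apart from the 4 genes above none passed the threshold.

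**Figure D3:**
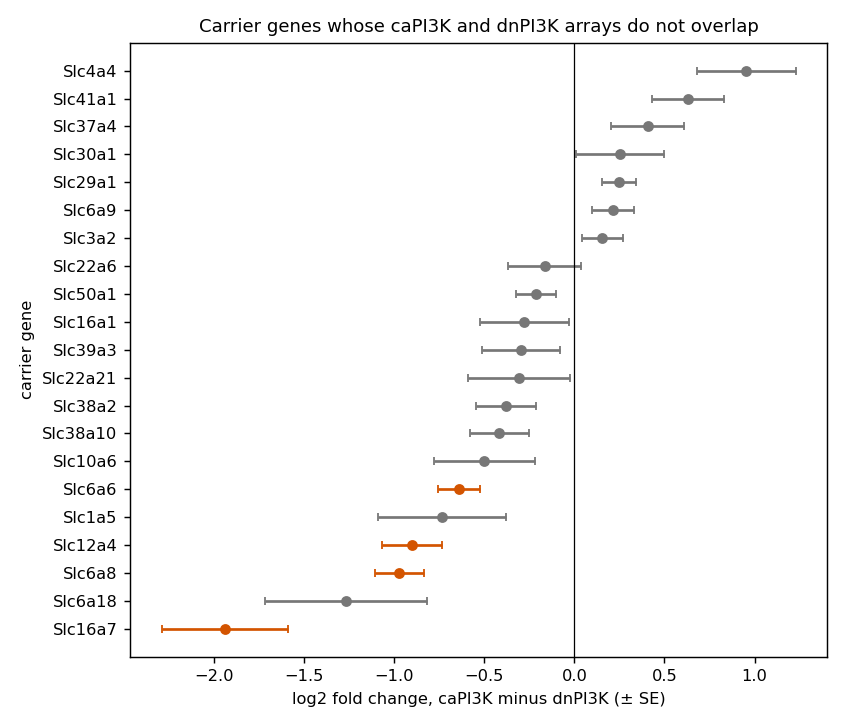
Log2 fold change ± SE of caPI3K minus dnPI3K for the 21 carrier genes whose 3 arrays of either group do not overlap, with the 4 that passed the threshold in orange. Slc16a7 is at -1.94 and Slc4a4 at 0.96.

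Among 22 amino acid carriers 20 were tested, and 0 passed with limma in any comparison (4 had an unadjusted p under 0.05 in caPI3K against dnPI3K, 3 in dnPI3K against NTG and 1 in caPI3K against NTG). In dnPI3K against NTG 15 of the 20 were above 0, with a median of 0.14, against 50.5% of all probe sets tested. This lean of the class was not tested. Slc1a5 (ASCT2), which exchanges glutamine and other neutral amino acids, read 134.9 ± 52.6 in NTG, 155.9 ± 44.1 in caPI3K and 253.9 ± 35.9 in dnPI3K (0.99 ± 0.356 against NTG, limma adjusted p = 0.217). All dnPI3K arrays of Slc1a5 exceeded all others. Slc38a2 (SNAT2), a sodium-coupled carrier induced when amino acids run short, read 1720 ± 460, 1374 ± 95.3 and 1793 ± 217 in the same order, and its caPI3K arrays lay below those of dnPI3K (-0.38 ± 0.166, limma adjusted p = 0.283). The other tested probe sets of Slc38a2 were at 0.37 and 0.05 there, each above the floor on only 3 arrays. Slc38a10 (-0.42 ± 0.163) and Slc6a18 (-1.27 ± 0.449) were likewise apart in that comparison. Slc3a2, the heavy chain that brings several Slc7a carriers to the cell surface, read 982.9, 974.4 and 1008 in caPI3K, above the NTG range of 703.1 to 909.5 (0.27 ± 0.116, limma adjusted p = 0.691). Slc3a1, the heavy chain of the cystine carrier, was at -0.76 ± 0.311 in dnPI3K against NTG. The arginine carrier Slc7a1 was dim and read 17.96, 108.3 and 99.5 in dnPI3K. All 3 caPI3K arrays, 2 of 3 NTG arrays and 1 of 3 dnPI3K arrays lay under the floor. Slc7a1 was thus tested mainly through the dnPI3K arrays, and its changes are measured mostly from the floor. With all arrays it was at 0.98 against NTG (limma adjusted p = 0.26). Without dnPI3K replicate 1 it was at 1.51 and passed (limma adjusted p = 0.0307, within 0.0307 to 0.563 over its alternatives). Slc38a5, which the rule for named genes did not choose and which is named after its values were seen, read 996.5, 981.2 and 492.0 in NTG and 483.3 to 634.1 in dnPI3K. It was at -0.48 (limma adjusted p = 0.406) with all arrays and at -0.81 without NTG replicate 3 (limma adjusted p = 0.0281, within 0.0281 to 0.69).

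The class of neurotransmitter, taurine and creatine carriers had 10 genes, of which 8 were tested. Slc6a8 and Slc6a6 passed as described. The glycine carrier Slc6a9 was lower on every dnPI3K array (692.9 to 739.2) than on the NTG (790.0 to 895.3) and caPI3K arrays (775.0 to 939.5), at -0.21 ± 0.117 against NTG (limma adjusted p = 0.442). The vesicular carriers Slc18a3 and Slc32a1 were above the floor on 0 arrays.

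All 6 Slc12 genes on the array, which encode cation and chloride cotransporters, were tested. Besides Slc12a4, the sodium, potassium and chloride cotransporter Slc12a2 (NKCC1), which loads cells with these ions, read 1266, 1415 and 1188 in caPI3K against 1084, 882.1 and 1183 in NTG (0.30 ± 0.127, limma adjusted p = 0.691). The groups were apart by a small margin, and the dnPI3K mean was 1240 ± 80.5. Slc12a7 (KCC4) did not pass in any comparison, at 3110 ± 316 in NTG, 3036 ± 241 in caPI3K and 3285 ± 161 in dnPI3K. Slc12a5, the form known from neurons, was at -0.80 ± 0.358 in caPI3K against NTG (limma adjusted p = 0.716).

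Of 9 genes for carriers of protons, bicarbonate and other anions 5 were tested. The sodium and bicarbonate cotransporter Slc4a4 (NBCe1), which brings bicarbonate into cardiomyocytes, read 224.1, 153.2 and 190.0 in NTG, 248.8, 229.3 and 165.6 in caPI3K and 90.9, 120.8 and 118.2 in dnPI3K. Each dnPI3K array was lower than all others. The log2 difference was 0.96 ± 0.273 between caPI3K and dnPI3K (limma adjusted p = 0.0972) and -0.78 ± 0.273 between dnPI3K and NTG (limma adjusted p = 0.208). With the floor at the 40th percentile the former was 0.85 and passed (limma adjusted p = 0.0353, within 0.0353 to 0.247). The chloride and bicarbonate exchanger Slc4a3 (AE3), typical of heart muscle, read 7254 ± 809 in NTG, 6667 ± 333 in caPI3K and 7203 ± 1204 in dnPI3K and did not pass. Neither did the exchangers Slc4a2 (0.38 ± 0.225 in dnPI3K against NTG) and Slc9a8 (-0.19 ± 0.131).

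All 16 metal carriers were tested. In dnPI3K against NTG 5 were above 0 and 11 below, with a median of -0.17, where 50.5% of all probe sets tested were above 0. This lean was not tested (0 passed, and 2 had an unadjusted limma p under 0.05). The magnesium carrier Slc41a1 read 608.7, 790.1 and 632.3 in NTG, 527.8, 649.4 and 715.9 in caPI3K and 321.7, 389.5 and 526.3 in dnPI3K. The dnPI3K arrays were below both other groups, at -0.74 ± 0.201 against NTG (limma adjusted p = 0.0993) and with a difference of 0.63 ± 0.201 between caPI3K and dnPI3K (limma adjusted p = 0.129). The zinc exporter Slc30a1 was dim, at 105.4 ± 7.32 in NTG, 80.7 ± 6.54 in caPI3K and 67.5 ± 1.75 in dnPI3K, and the 3 groups did not overlap (-0.64 ± 0.246 in dnPI3K against NTG, limma adjusted p = 0.253). It passed in that comparison when no filter on dim probe sets was used (limma adjusted p = 0.0477, within 0.0477 to 0.42). The zinc carrier Slc30a4 was at -0.27 ± 0.194 in the same comparison, with its arrays apart. Its second probe set was at 0.58 there, but all 3 NTG arrays of that probe set lay under the floor. In caPI3K against NTG, Slc30a9 was at 0.51 ± 0.181 and the iron carrier Slc11a2 (DMT1) at -0.26 ± 0.194, the latter with arrays apart.

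Among organic cation and anion carriers, 11 of 14 were tested. The carnitine carrier Slc22a21 read 89.0, 135.9 and 108.5 in NTG, 45.8, 50.6 and 51.1 in caPI3K and 54.3, 53.5 and 77.4 in dnPI3K. Both transgenic groups lay wholly below NTG, at -1.16 ± 0.281 in caPI3K (limma adjusted p = 0.322) and -0.85 ± 0.281 in dnPI3K (limma adjusted p = 0.181), and both comparisons share the NTG arrays. Within the number series shared by caPI3K and NTG animals, the caPI3K change was -1.19 in the series with 2 animals of each group and -1.09 in the series with 1 of each. The phosphate carrier Slc34a1, best known from the kidney, was dim and also lower in both transgenic groups, at -0.74 ± 0.313 and -0.72 ± 0.313. The bile acid family members Slc10a6 (-0.50 ± 0.279 between caPI3K and dnPI3K) and Slc10a3 (0.15 ± 0.256) did not pass. Slc22a6 lay under the floor on all NTG and caPI3K arrays and just above it in dnPI3K (42.5, 38.6 and 37.9), so it was tested only because of the dnPI3K arrays and no change is given. The phosphate carrier Slc20a1 (PiT1) was at 0.57 ± 0.277 in dnPI3K against NTG, with groups that overlapped.

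Of 7 nucleoside and nucleotide sugar carriers 6 were tested and 0 passed with limma (1 had an unadjusted p under 0.05, between caPI3K and dnPI3K). The adenosine carrier Slc29a1 (ENT1), which controls extracellular adenosine, read 1992, 1727 and 1848 in caPI3K, above the NTG range of 1515 to 1721 and the dnPI3K range of 1522 to 1626. Its log2 difference was 0.25 ± 0.0934 between caPI3K and dnPI3K (limma adjusted p = 0.203) and 0.19 ± 0.0934 between caPI3K and NTG (limma adjusted p = 0.734). A second Slc29a1 probe set, whose suffix marks relaxed design rules, was at 0.78 in caPI3K against dnPI3K (limma adjusted p = 0.18) and at 0.85 against NTG (limma adjusted p = 0.53). Slc35a4, of the nucleotide sugar carrier family, was dim and read 52.4, 93.8 and 139.5 in NTG, 23.2, 26.8 and 93.4 in caPI3K and 51.9, 103.6 and 96.8 in dnPI3K. Its groups overlapped, 2 of 3 caPI3K arrays lay under the floor, and it was at -0.85 ± 0.487 in caPI3K against NTG (limma adjusted p = 0.783) and -0.72 ± 0.487 against dnPI3K (limma adjusted p = 0.529). Slc37a4, which brings glucose 6-phosphate into the endoplasmic reticulum, was at 0.41 ± 0.203 between caPI3K and dnPI3K (limma adjusted p = 0.357), with arrays apart. The sugar carrier Slc50a1 read 923.5 to 987.6 in dnPI3K, above 696.1 to 840.1 in NTG and 802.7 to 828.4 in caPI3K (0.34 ± 0.109 against NTG, limma adjusted p = 0.171). Slc33a1, an acetyl-CoA carrier, was close to the floor in all groups. Among 12 carriers of vitamins, choline and peptides 10 were tested. The folate carrier Slc19a1 read 394.2 ± 42.6 in NTG, 295.6 ± 73.5 in caPI3K and 213.8 ± 67.2 in dnPI3K, and NTG arrays were above both other groups (-0.93 ± 0.285 in dnPI3K, limma adjusted p = 0.142). That probe set may share sequence with other genes, and the second Slc19a1 probe set was at 0.26 in the same comparison. The haem carrier Slc48a1 was at -0.43 ± 0.395 in caPI3K against NTG with arrays apart, and the peptide carrier Slc15a2 at 1.02 ± 0.489 between caPI3K and dnPI3K, where its arrays overlapped. The remaining genes that the rule for named genes chose, Slc5a1, Slc5a11, Slc22a23, Slc23a3, Slc30a3, Slc34a2 and Slc66a2, did not pass in any comparison either.

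**Figure D4:**
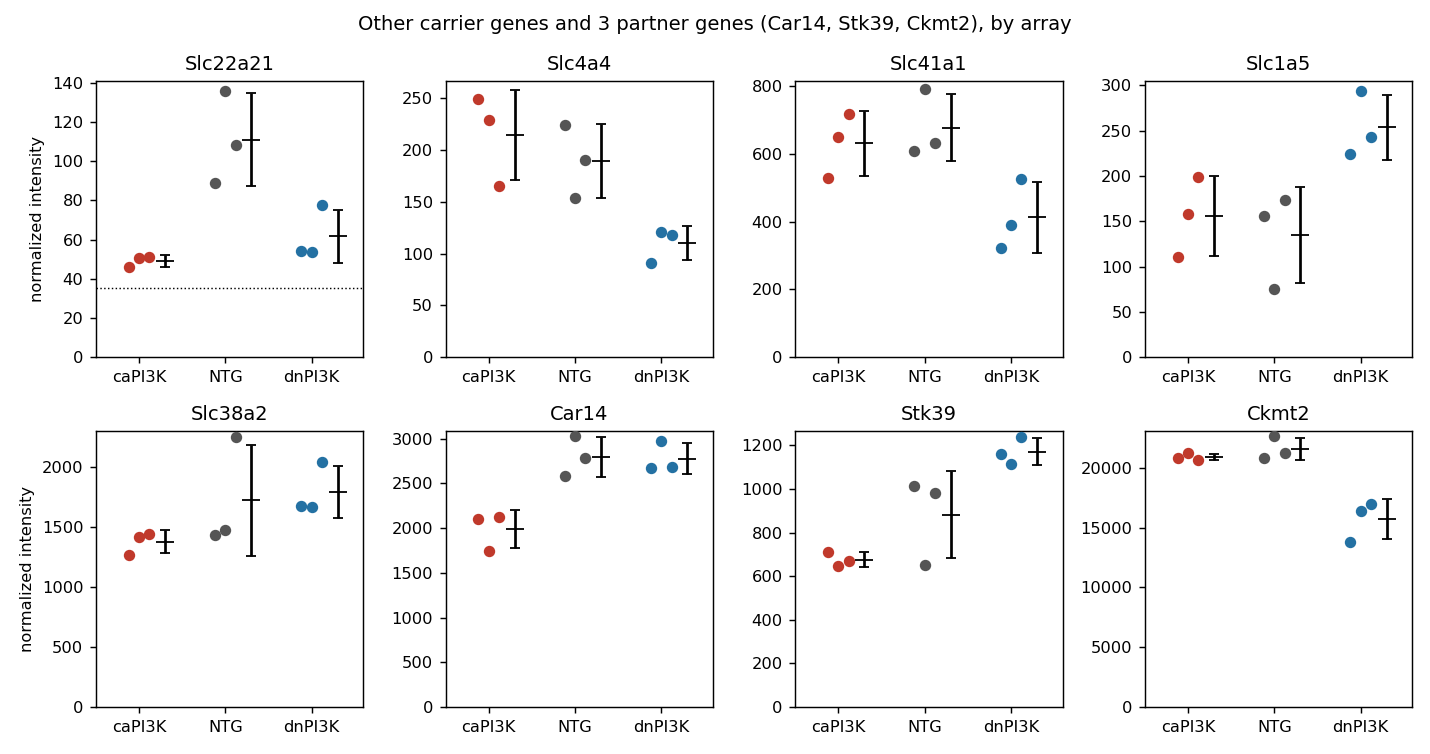
Normalized intensity (linear axes from 0) on each array of 5 carrier genes that did not pass with all arrays (Slc22a21, Slc4a4, Slc41a1, Slc1a5, Slc38a2) and of 3 partner genes that passed in caPI3K against dnPI3K (Car14, Stk39, Ckmt2), with group means ± SD (n = 3) to the right of the points. Slc4a4 and Slc41a1 were lowest in dnPI3K, Slc22a21 was highest in NTG, and Car14 was lowest in caPI3K.

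Genes that work with these carriers were measured by lists of partners. Of 5 tested subunits and regulators of the sodium pump 0 passed in any comparison with limma (1 had an unadjusted p under 0.05, between caPI3K and dnPI3K). Phospholemman (Fxyd1), which inhibits the pump, was at -0.22 ± 0.0754 between caPI3K and dnPI3K (limma adjusted p = 0.157), and its lowest dnPI3K array was above the highest of the other groups. Of 8 chaperones and scaffolds 0 passed with limma (1 had an unadjusted p under 0.05 in either comparison with dnPI3K). Basigin (Bsg), a chaperone of monocarboxylate carriers, was at 0.29 ± 0.0865 between caPI3K and dnPI3K (limma adjusted p = 0.108). It passed in 3 of 20 alternatives, among them the deposited values without quantile normalization (limma adjusted p 0.0155 to 0.322 over all). Embigin (Emb), another chaperone of these carriers, was dim and at -0.03 ± 0.343 between caPI3K and dnPI3K (limma adjusted p = 0.982). Carbonic anhydrases supply the protons and bicarbonate that these carriers move. Of 8 tested, Car14, a membrane enzyme of the muscle cell surface, read 2106, 1742 and 2122 in caPI3K against 2674, 2978 and 2680 in dnPI3K and 2585, 3025 and 2779 in NTG. It passed between caPI3K and dnPI3K (-0.48 ± 0.105, limma adjusted p = 0.0323) and not between caPI3K and NTG (-0.49 ± 0.105, limma adjusted p = 0.215). The former was lost without any 1 of the 6 arrays of these groups (-0.53 to -0.39). Of 6 tested kinases and ligases that act on carriers, Stk39 passed. Over all probe sets, 3.24% passed in either direction between caPI3K and dnPI3K and 2.18% between dnPI3K and NTG. Of 8 tested genes of lactate and creatine metabolism, the mitochondrial creatine kinase Ckmt2 passed, being lower in dnPI3K than in caPI3K (by 0.42 ± 0.0925, limma adjusted p = 0.0364) and than in NTG (-0.46 ± 0.0925, limma adjusted p = 0.0336). Ckmt2 thus differed in the opposite direction to the creatine carrier Slc6a8. Its arrays read 20877, 22680 and 21230 in NTG, 20877, 21230 and 20665 in caPI3K and 13794, 16400 and 17019 in dnPI3K. The call against caPI3K was lost without any 1 of the caPI3K arrays or dnPI3K replicate 1 or 2, and the call against NTG without any 1 array other than dnPI3K replicate 3 or NTG replicate 3. Of the organic anion carriers named Slco, 2 were tested and neither passed.

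Markers of other cell types moved between the same groups. The summed intensity of 9 smooth muscle and pericyte genes was 4228 to 4831 in caPI3K, 5407 to 5860 in NTG and 6383 to 7507 in dnPI3K, so that the groups stood in the same order as for Slc6a6 and did not overlap. Of the 8 tested members, Acta2 (-1.56) and Myh11 (-1.20) were lower in caPI3K than in dnPI3K. In that comparison 1.54% of all probe sets passed as lower in caPI3K. In dnPI3K against NTG 1 member passed as higher, against 1.01% of all probe sets. No member of this list was at the floor on all arrays. The endothelial list of 8 genes summed to 8722 to 10443 in caPI3K and 10696 to 11188 in dnPI3K, with 0 members past the threshold. The sum of the 11 skeletal muscle genes ran the other way. It was 37104 to 44981 in caPI3K, 19431 to 24207 in NTG and 12093 to 17137 in dnPI3K. Of 9 tested members, 2 passed as lower in dnPI3K than in NTG, where 2.18% of all probe sets passed in either direction. In caPI3K against dnPI3K 3 passed as higher, where 3.24% of all probe sets passed in either direction. Myh1 was at the floor throughout. The median log2 fold change of the tested members was 0.22 in that comparison but -0.15 in caPI3K against NTG. In the latter 1 passed as higher, against 0.0845% of all probe sets in either direction. The sum therefore does not stand for all members of this list. Sums of the red blood cell, fibroblast, macrophage, adipocyte and neuron lists overlapped between caPI3K and dnPI3K. Of 10 fibroblast genes, the collagen chain Col1a1 passed between caPI3K and dnPI3K, where 3.24% of all probe sets passed in either direction. It was higher in caPI3K (2084 to 2620) than in dnPI3K (1009 to 1362), by 0.99 on the log2 scale (limma adjusted p = 0.018). The 6 atrial genes did not move together, and their sum of 2470 to 21432 over all 9 arrays hides this. The atrial myosin light chains Myl4 and Myl7 were lower in dnPI3K than in NTG, at -5.48 and -5.19 (limma adjusted p = 0.04 and 0.0476). Over all probe sets, 2.18% passed there in either direction. Myl4 read 27.9 to 49.7 in dnPI3K, from under the floor of 35.3, against 222.7 to 6896 in NTG. Myl7 read 36.5 to 142.3 against 315.4 to 7253. On the NTG arrays the sum of the 6 genes was 21432, 12375 and 2470. The natriuretic peptide gene Nppa was lower in caPI3K (1450 to 3527) than in dnPI3K (8414 to 11231), at -2.22 (limma adjusted p = 0.0282). In that comparison 1.54% of all probe sets passed as lower in caPI3K. The part of these lists, and of the array controls, in the 4 carrier results was not tested.

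**Figure D5:**
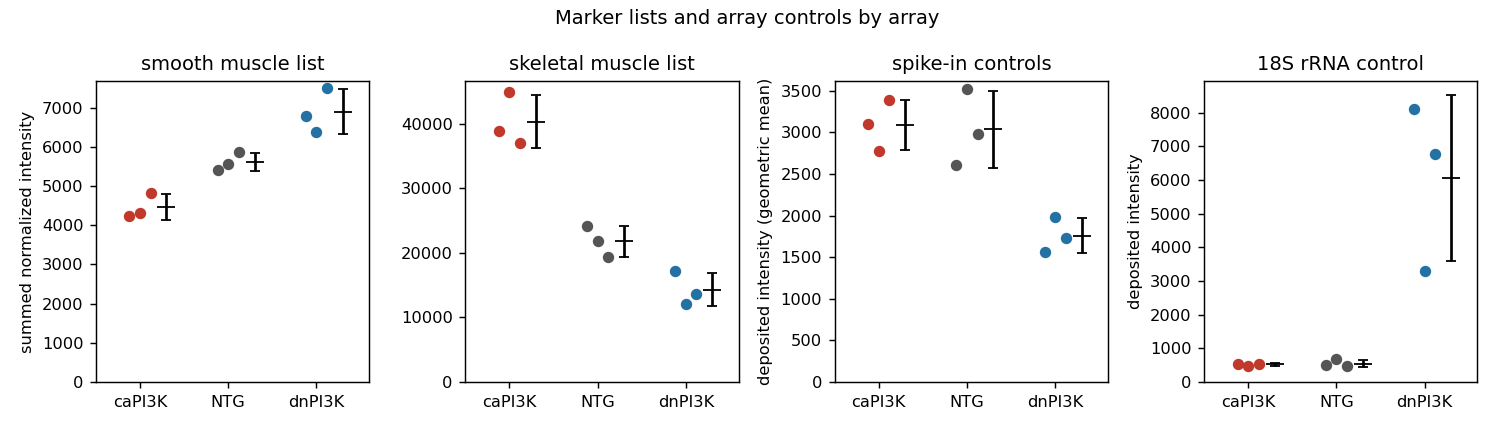
Summed normalized intensity of the smooth muscle and skeletal muscle lists, and deposited intensity of the spike-in controls (geometric mean) and of the 18S ribosomal RNA 3′ control, on each array with group means ± SD (n = 3) to the right of the points. The smooth muscle sum rises from caPI3K (4228 to 4831) to dnPI3K (6383 to 7507), and both array controls set the dnPI3K arrays apart.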

How the data were processed

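The deposited table holds 1 intensity per probe set and array on a linear scale for 9 arrays. The sources used here do not say how the authors computed it. The scan used a photomultiplier setting of 10%, per the labels. The mean without the outer 2% on either side was 500.4 on every array. Gene symbols came from the platform's annotation table. It gives 1 symbol to 10855 probe sets, several to 396 (not used) and none to 1237. All 106 carrier genes had the same symbol in RefSeq's mouse gene table.

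After quantile normalization, values under the 20th percentile of all values were set to it. The log2 values were fitted with limma 3.58.1 in R 4.3.3 (group as the only term, all 9 arrays, eBayes with trend). The 66 array controls were left out of tests. Means and SD are of normalized intensities before the floor. The fit was tested on simulated data. Each array is a mouse with its own number, per the labels. Replicates are numbered in deposit order.

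The members, substrate classes, partner and marker lists were chosen with earlier results of these data known. Class entries for 7 genes were added after seeing which genes the array holds. Named were Slc16a7; members past the threshold; per class the 3 smallest F-test p-values and the brightest in NTG; per comparison up to 10 members per direction with arrays apart; and per partner list those past the threshold or the smallest p. Alternatives changed the normalization, floor, filter, moderation, weights, probe set choice, member choice and samples, and left out each array in turn.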

Additional observations from a re-analysis of the deposited data

How the results depend on the processing

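Between caPI3K and NTG 0 carrier genes passed under every alternative run, including a fit that blocked on number series. In dnPI3K against NTG the count was 1. It was 2 with arrays scaled to the same median, with only probe sets above the median or with array weights, and 0 with no intensity trend or with only the 2 groups fitted. With no filter on dim probe sets it was 1, but the gene was Slc30a1 (lower) and Slc6a8 was lost. Leaving out 1 array gave 0 to 4 (4 without NTG replicate 3, and 0 without dnPI3K replicate 2 or 3 or NTG replicate 1 or 2). Without dnPI3K replicate 1 the 1 gene was Slc7a1. In caPI3K against dnPI3K the count was 4. It was 2 with no filter on dim probe sets or with no intensity trend (Slc6a8 and Slc16a7 in both), and 3, without Slc16a7, with the floor at the 5th percentile or with only probe sets above the median. With the floor at the 40th percentile Slc4a4 (higher) took the place of Slc16a7. In the same way Slc7a1 took its place without dnPI3K replicate 1, and leaving out 1 array gave 2 to 4 (2 without any caPI3K array or dnPI3K replicate 2 or 3). The cause was not tested. No call changed direction. No paired analysis was possible because the labels give no replicate numbers that groups share, and number series were used only as the block above and for the values within series. Dim genes such as Slc16a7 and Slc7a1 are limited by the floor.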
